A study of Papio anubis with 28 samples.

Results

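The macrophage and complement C1q genes described here are used as markers of macrophages, and were followed through bladder reconstruction in olive baboons (Papio anubis). They are the C1q chain genes C1QA, C1QB and C1QC together with CSF1R, CD68, AIF1, CD163, MRC1 and MARCO. They were taken by gene name from the deposited count table, where each matched 1 row, and so make up 9 of its 27533 genes. All 9 passed the filter on low counts that left 17177 genes for testing. Bulk RNA sequencing was made from 28 pieces of tissue from 14 animals, a graft and the native bladder of each animal, and the stated purpose was to set tissue regenerated in cell-seeded scaffolds against the established operation, enterocystoplasty, in which a bowel segment enlarges the bladder.

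The Entero arm held 5 ileum grafts and the 5 native bladders of the same animals, all 10 labelled with the treatment Ileum graft. The SIS arm held 5 pieces of regenerated tissue and 5 native bladders, and the PRS arm held 4 and 4, all labelled with the treatment MSC/CD34+ HSPC graft and with primary bone marrow cells as the cell source. SIS and PRS are the labels' names for the cell-seeded arms. The labels do not spell them out, and they give neither ages nor the time after surgery. All animals were of genotype WT. Every native bladder came from an operated animal, and no ileum outside the bladder and no scaffold without cells was analysed here. The labels tie the graft and the native bladder of an animal together by its code, so values below run over animals 1 to 5 (1 to 4 in the PRS arm) in the same order for graft and bladder. The codes also carry a letter, M for animals 4 and 5 of the Entero and SIS arms and animals 3 and 4 of the PRS arm, and F for the others. Differences by this letter were not tested.

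C1q is the recognition molecule of the classical complement pathway. Its A, B and C chains assemble into a collagen-like bundle that binds antibody complexes, dying cells and other surfaces, and in human and mouse tissues macrophages are its main source. CSF1R is the receptor through which CSF1 and IL34 keep most tissue macrophages alive. CD68 is a heavily glycosylated lysosomal membrane protein, and AIF1 (also called IBA1) an actin-bundling protein of motile macrophages. CD163 takes up haemoglobin bound to haptoglobin, MRC1 (CD206) binds mannose-bearing glycoproteins, and MARCO is a scavenger receptor for bacteria and particles. These roles are known from human and mouse. In bulk tissue, fewer macrophages and less RNA per macrophage cannot be told apart. Which cells made the RNA was not tested.

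Libraries held 20975648 to 35669026 reads assigned to genes. Levels are in CPM, reads of a gene relative to all reads of its library, on library sizes scaled with the trimmed mean of M values (TMM). As a check of the tissue, the summed level of 9 markers of intestinal epithelium was 1920 to 11700 CPM in ileum grafts and 43.0 to 203 CPM in the native bladders of the same animals. Mitochondrial transcripts took 13.97% to 33.9% of reads in ileum grafts and 4.66% to 11.6% in the other 23 libraries, with the highest share in ileum graft 1. PRS regenerated tissue 3 had the lowest level of all 28 libraries for 6 of the 9 genes, and ileum graft 4 the highest for 5 of them. In regenerated SIS tissue 2 a list of inflammatory macrophage genes summed to 2690 CPM, against 77.7 to 163 CPM in the other 4 regenerated SIS tissues.

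**Figure D1:**
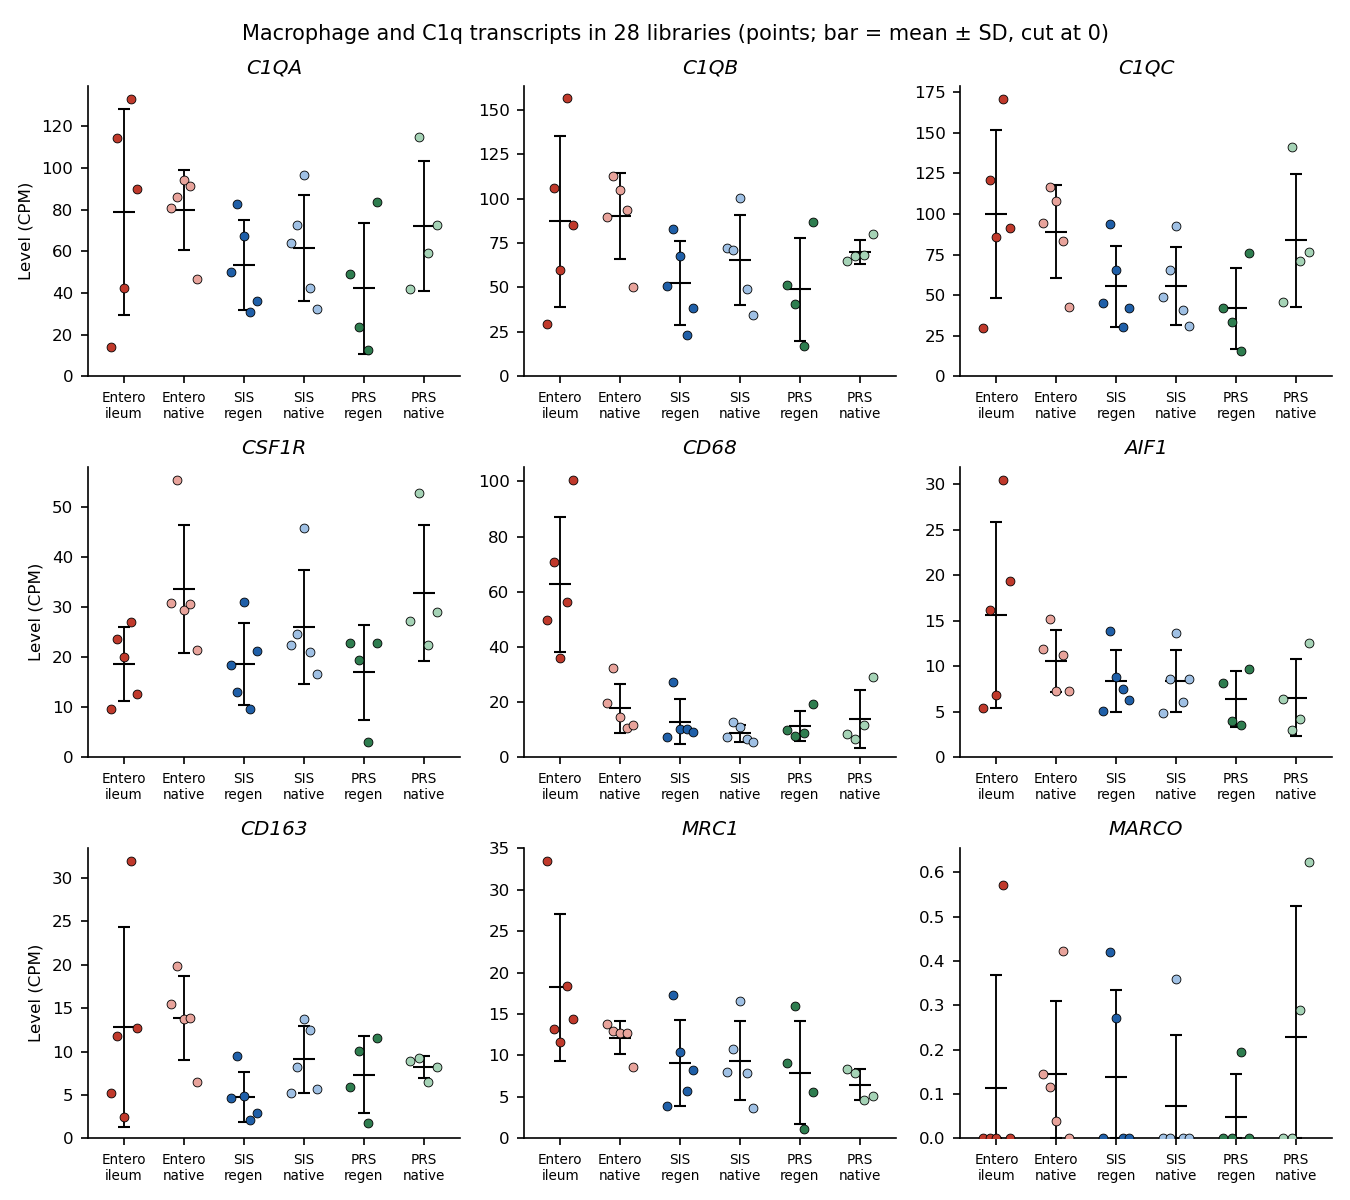
Levels of the 9 macrophage and C1q genes in each of the 28 libraries, in CPM on TMM-scaled library sizes, by group with the graft left of its native bladder; points are libraries and bars show the mean ± SD. The 5 ileum grafts lie above all their native bladders for CD68 only, and in every other panel the grafts overlap the native bladders of their arm.

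Per kilobase of the gene length given in the deposited table, C1QC was the most abundant of the 9, with a median level over the 28 libraries of 41.4 CPM per kb. C1QA followed at 15.5, C1QB at 11.4, CD68 at 10.6 and CSF1R at 7.71 CPM per kb. AIF1 (3.39), CD163 (2.47) and MRC1 (1.86 CPM per kb) were lower, and the median of MARCO was 0. The lengths of the C1q chains in the table differ widely (4248 bases for C1QA, 5971 for C1QB and 1648 for C1QC) while their levels without length correction were alike, at medians of 65.6, 67.9 and 68.3 CPM, so the order among the chains follows the annotated lengths.

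The C1q chains did not differ detectably between ileum grafts and native bladder, and ileum grafts spread far more widely. C1QA stood at 14.2, 114, 42.3, 133 and 90.0 CPM in ileum grafts, against 80.9, 85.9, 94.4, 91.2 and 46.9 CPM in native bladders. C1QB stood at 29.3, 106, 59.6, 156 and 85.4 CPM in ileum grafts, against 89.4, 113, 105, 93.4 and 50.5 CPM in native bladders. C1QC stood at 29.5, 121, 85.95, 171 and 91.3 CPM in ileum grafts, against 94.1, 116, 108, 83.2 and 42.9 CPM in native bladders. Ileum grafts 1 and 3 were below the native bladder of their animal for all 3 chains and ileum grafts 4 and 5 above it, so the groups overlapped for each chain. The log2 fold changes of ileum graft against native bladder were -0.019 for C1QA (95% interval -1.003 to 0.97), -0.048 for C1QB (-0.88 to 0.78) and 0.16 for C1QC (-0.72 to 1.05). None passed edgeR's quasi-likelihood test with Benjamini-Hochberg adjustment over all tested genes at 0.05, in a comparison where 15% of all genes did (7.72% higher and 7.33% lower in ileum grafts).

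In the SIS arm, regenerated tissue held 53.3 ± 21.6 CPM of C1QA, 52.6 ± 23.6 of C1QB and 55.3 ± 25.1 of C1QC, against 61.7 ± 25.3, 65.4 ± 25.1 and 55.8 ± 24.1 CPM in native bladders (mean ± SD, n = 5 each). The chains' log2 fold changes lay between -0.31 (C1QB, SE 0.40) and -0.013 (C1QC, SE 0.43), with edgeR adjusted p-values of 1, where no gene of all those tested passed (0%). At an unadjusted p under 0.05 edgeR listed 4.86% of genes (835), and DESeq2 called 70 genes after adjustment (0.409%), none of them among the 9.

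In the PRS arm the chains were lowest relative to the animal's own bladder in animals 2 and 3, and none passed the test. C1QC stood at 42.3, 33.4, 15.8 and 75.7 CPM in regenerated tissue, against 46.0, 141, 71.0 and 76.3 CPM in native bladders. Regenerated tissue was below the native bladder in every animal, but in animals 1 and 4 by only 0.12 and 0.01 on a log2(CPM + 1) scale, against 2.05 and 2.10 in animals 2 and 3. C1QA showed the same split, with 49.2, 23.7, 12.8 and 83.5 CPM in regenerated tissue against 41.9, 115, 59.4 and 72.7 CPM in native bladders. For C1QC and C1QB, 3 of the 4 regenerated tissues lay below every native bladder. The log2 fold change of C1QC was -1.001 (SE 0.48, unadjusted p = 0.0492, edgeR adjusted p = 1), that of C1QA -0.77 (SE 0.54) and that of C1QB -0.52 (SE 0.45). No gene of all those tested passed in this arm (0%). An unadjusted p under 0.05 was reached by 3.62% of genes (622), and DESeq2 called 26 genes after adjustment (0.152%), with none of the 9 among them.

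The order of group means was the same for C1QA and C1QB, falling through Entero native bladder, ileum graft, PRS native bladder, SIS native bladder, SIS regenerated tissue and PRS regenerated tissue. For C1QC the ileum graft led. No neighbouring groups in these orders were separated by more than the larger of their SDs, and the mean of PRS regenerated tissue was 42.3 ± 31.4, 49.0 ± 29.1 and 41.8 ± 25.1 CPM (SD, n = 4) for the A, B and C chains.

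The ratios between the chains centred near 1 but varied between libraries and groups. Reads of C1QB per read of C1QC had a median of 1.04 over the 28 libraries, with a range of 0.477 to 1.49, and reads of C1QA per read of C1QC had a median of 0.949 and a range of 0.483 to 1.32. PRS native bladder 2 had the lowest ratio of C1QB to C1QC and the highest of C1QA to C1QB (1.71), and ileum graft 1 the lowest of C1QA to C1QB (0.486). Pearson's r between chains, on log2(CPM + 1), was 0.93 to 0.97 over the 14 grafts and 0.81 to 0.94 over the 14 native bladders. These r describe libraries that share tissue, depth and scaling.

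CSF1R was lower in the graft than in the native bladder of the same animal in 13 of 14 animals. In the Entero arm it stood at 9.60, 23.6, 20.1, 27.0 and 12.7 CPM in ileum grafts, against 30.7, 55.3, 29.4, 30.5 and 21.5 CPM in native bladders. In the SIS arm it stood at 18.3, 13.1, 31.0, 9.67 and 21.2 CPM in regenerated tissue, against 22.3, 24.5, 45.7, 21.1 and 16.6 CPM in native bladders. In the PRS arm it stood at 22.8, 19.4, 2.98 and 22.8 CPM in regenerated tissue, against 27.1, 52.6, 22.4 and 28.9 CPM in native bladders. The exception was SIS animal 5, and 3 of the 5 ileum grafts lay below every Entero native bladder, but in all 3 arms the groups overlapped. Being lower in at least 13 of 14 grafts was shared by 40 genes, 0.233% of those tested.

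The paired differences of CSF1R on the log2(CPM + 1) scale were -1.58, -1.19, -0.53, -0.17 and -0.72 in Entero animals. They were -0.27, -0.86, -0.55, -1.05 and 0.34 in SIS animals and -0.24, -1.40, -2.55 and -0.33 in PRS animals. The largest difference was that of PRS animal 3, whose regenerated tissue had 2.98 CPM. By group mean CSF1R ran from Entero native bladder (33.5 ± 12.8 CPM) through PRS native bladder, SIS native bladder, regenerated SIS tissue and ileum graft down to regenerated PRS tissue (16.99 ± 9.48 CPM), with no neighbours apart by more than the larger of their SDs. No single arm passed the test: the log2 fold change was -0.85 in the Entero arm (SE 0.43, edgeR adjusted p = 0.192), -0.48 in the SIS arm (SE 0.43, adjusted p = 1) and -0.95 in the PRS arm (SE 0.48, adjusted p = 1). Over both scaffold arms it was -0.71 (SE 0.32, unadjusted p = 0.0346, edgeR adjusted p = 0.919), where 0% of genes passed after adjustment. Before adjustment 4.98% of genes (856) were under 0.05 there, and DESeq2 called 65 (0.379%).

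Averaged over the 3 arms, a contrast added after the pattern across the 14 animals had been seen, CSF1R was lower in grafts by a log2 fold change of -0.76 (SE 0.26, edgeR adjusted p = 0.0976), in a fit that passed 4.41% of genes. With the animal as a replicate block the value was -0.86 (SE 0.22, edgeR adjusted p = 0.0489), where 2.73% of genes passed, and DESeq2, which called 7.75% of genes, gave -0.73 (adjusted p = 0.0593). The call with the block rested on single animals. Leaving out each animal in turn gave values of -0.98 to -0.69 and edgeR adjusted p-values of 0.0419 to 0.107, and only the fits without Entero animal 4, PRS animal 1, PRS animal 4 or SIS animal 5 passed. Since this contrast was chosen for CSF1R, its p is no independent support.

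**Figure D2:**
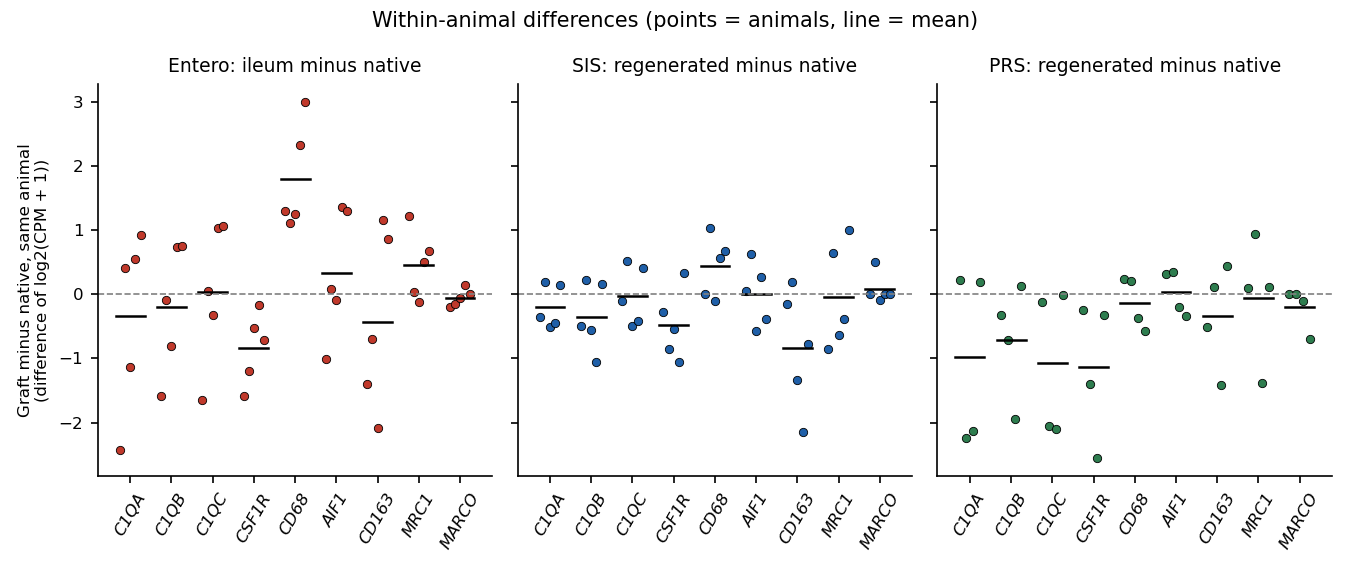
Graft minus native bladder in each of the 14 animals, as the difference of log2(CPM + 1), for the 9 genes in the Entero, SIS and PRS arms. CD68 lies above 0 in all 5 Entero animals, and CSF1R lies below 0 in every animal but SIS animal 5.

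The ligands of CSF1R moved apart in ileum grafts. IL34 was 36.4 ± 22.1 CPM in ileum grafts and 9.95 ± 6.12 CPM in native bladders (SD, n = 5 each) and rose (log2 fold change 1.87, SE 0.55, adjusted p = 0.0194 by edgeR). CSF1 was 27.5 ± 4.57 CPM in ileum grafts and 63.9 ± 16.5 CPM in native bladders and fell (log2 fold change -1.21, SE 0.36, adjusted p = 0.0226 by edgeR). They were the only calls among 9 tested genes of CSF1R ligands, related receptors and myeloid transcription factors, beside 15% of all genes called. The median log2 fold change of that list was 0.46, beside -0.03 over all tested genes. With the animal as a replicate block CSF1 held, and IL34 stood at 1.89 (edgeR adjusted p = 0.0780). Neither call outlasted every left-out library. CSF1 lost it without Entero native bladder 3 (edgeR adjusted p = 0.0618) or ileum graft 5 (0.0591), and IL34 without Entero native bladder 2 (0.0519), Entero native bladder 3 (0.0564) or ileum graft 5 (0.0646).

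CD68 was the only gene of the 9 to pass the test between graft and native bladder. It stood at 49.7, 70.9, 36.2, 56.4 and 100.3 CPM in ileum grafts, against 19.6, 32.3, 14.6, 10.5 and 11.8 CPM in native bladders of the same animals. Every ileum graft lay above every native bladder, a separation that 5.52% of all tested genes (948) showed in this direction. The rise was 3.53-fold with a 95% interval of 1.89 to 6.62 (log2 fold change 1.82, SE 0.44, edgeR adjusted p = 0.00544). The 1 call among 9 genes stands beside 15% of all genes called in this comparison. The call held with the animal as a replicate block (1.85, SE 0.32, adjusted p = 0.00151) and whichever library was left out (1.59 to 2.15, edgeR adjusted p 0.00246 to 0.0216).

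Within a library CD68 was also higher relative to C1q. Reads of CD68 per read of C1QC ran from 0.330 to 1.69 with a median of 0.587 in ileum grafts, and from 0.126 to 0.277 with a median of 0.208 in native bladders. This ratio does not depend on how libraries are scaled. The 9 intestinal markers all rose with CD68 in ileum grafts, and 9 of 13 mitochondrial genes did. Their part in the CD68 result was not tested.

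CD68 did not pass in either scaffold arm. Regenerated SIS tissue held 7.53, 27.4, 10.2, 10.3 and 9.34 CPM, against 7.46, 12.8, 11.03, 6.59 and 5.504 CPM in SIS native bladders. Regenerated PRS tissue held 9.98, 7.59, 8.72 and 19.2 CPM, against 8.28, 6.48, 11.6 and 29.3 CPM in PRS native bladders. The groups overlapped in both arms, and regenerated SIS tissue 2, also the library with the high inflammatory sum, stood far above the other 4. The log2 fold change was 0.57 in the SIS arm (95% interval -0.31 to 1.46) and -0.29 in the PRS arm (-1.27 to 0.70), with edgeR adjusted p-values of 1 in both. Without regenerated SIS tissue 2, the value in the SIS arm was 0.10. Averaged over the 3 arms, in the contrast added for CSF1R, CD68 was at 0.70 (SE 0.26, edgeR adjusted p = 0.135) and with the animal as a replicate block at 0.73 (SE 0.19, adjusted p = 0.0489). That call held in 1 of the 14 fits that each left out an animal, the fit without Entero animal 3 (edgeR adjusted p-values 0.0463 to 0.123).

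Ordered by mean level, CD68 was highest in ileum grafts, followed by Entero native bladder, PRS native bladder, regenerated SIS tissue, regenerated PRS tissue and SIS native bladder. From Entero native bladder (17.7 ± 8.85 CPM) down to SIS native bladder (8.68 ± 3.11 CPM), no neighbours in this order differed by more than the larger of their SDs.

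**Figure D3:**
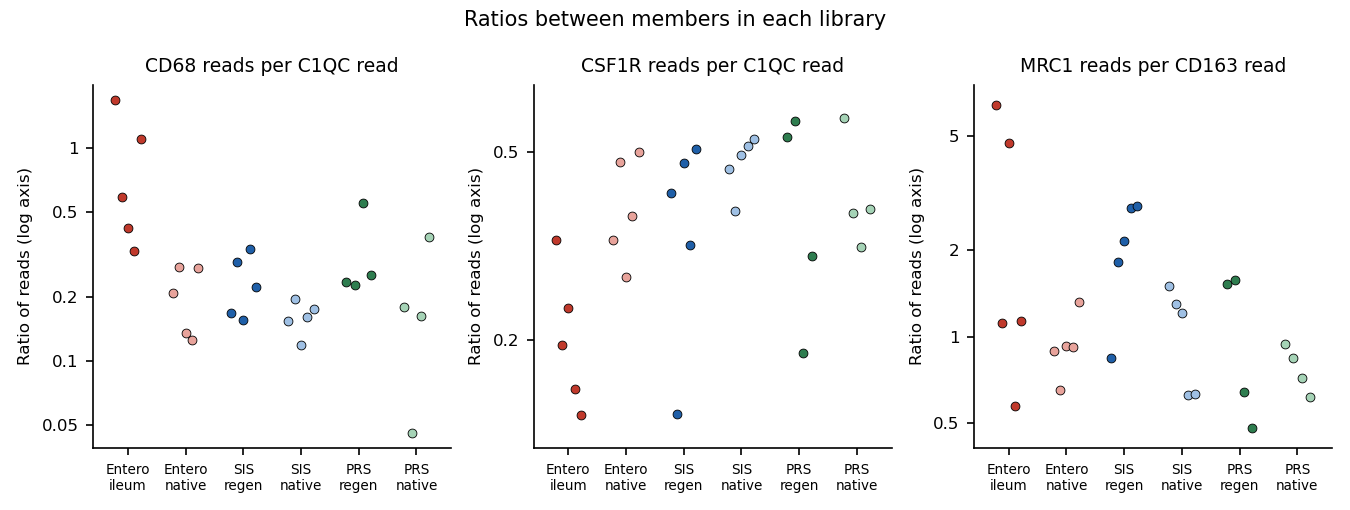
Reads of CD68 and of CSF1R per read of C1QC, and reads of MRC1 per read of CD163, in each library by group on a log axis, with the graft left of its native bladder. CD68 per C1QC lies at 0.330 to 1.69 in ileum grafts, above the 0.126 to 0.277 of their native bladders.

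The ratio of CSF1R to C1QC was lower in ileum grafts. It was 0.139 to 0.326 with a median of 0.196 in ileum grafts and 0.272 to 0.500 with a median of 0.367 in native bladders, with ileum graft 1 inside the native range. In the SIS arm it was 0.139 to 0.507 in regenerated tissue (median 0.409) and 0.374 to 0.531 in native bladder (median 0.4929). In the PRS arm it was 0.188 to 0.580 in regenerated tissue (median 0.420) and 0.315 to 0.588 in native bladder (median 0.376).

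AIF1, unlike CD68, did not pass in any arm. It stood at 5.43, 16.1, 6.81, 30.5 and 19.4 CPM in ileum grafts, against 11.96, 15.2, 7.30, 11.3 and 7.27 CPM in native bladders. Ileum grafts 2, 4 and 5 lay above every native bladder, and ileum grafts 1 and 3 below every native bladder. The log2 fold change was 0.56 (SE 0.46, edgeR adjusted p = 0.458) in the Entero arm, -0.0052 (SE 0.46) in the SIS arm and -0.037 (SE 0.51) in the PRS arm. Regenerated tissue held 8.36 ± 3.41 CPM in the SIS arm, against 8.39 ± 3.37 CPM in SIS native bladder (SD, n = 5 each), and 6.38 ± 3.07 CPM in the PRS arm, against 6.55 ± 4.25 CPM in PRS native bladder (SD, n = 4 each). Its group means ran from ileum graft (15.7 ± 10.2 CPM) through Entero native bladder, SIS native bladder, regenerated SIS tissue and PRS native bladder to regenerated PRS tissue, with no neighbours apart by more than the larger of their SDs.

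The scavenger receptors showed no call in any graft against its native bladder. CD163 stood at 5.23, 11.8, 2.48, 31.9 and 12.7 CPM in ileum grafts, against 15.5, 19.8, 13.7, 13.8 and 6.53 CPM in native bladders (log2 fold change -0.11, SE 0.53). The ileum grafts covered both ends, with ileum graft 4 the highest of the 28 libraries and ileum grafts 1 and 3 below every native bladder of their arm. In the SIS arm CD163 stood at 4.68, 9.54, 4.84, 2.06 and 2.91 CPM in regenerated tissue, against 5.28, 8.23, 13.7, 12.5 and 5.72 CPM in native bladders. In 4 of the 5 regenerated SIS tissues it was below every SIS native bladder, and in 4 of 5 animals below the animal's own. The log2 fold change was -0.92 (SE 0.54, unadjusted p = 0.0997, edgeR adjusted p = 1), and -0.16 (SE 0.60) in the PRS arm, where regenerated tissue held 7.35 ± 4.39 CPM, against 8.21 ± 1.24 CPM in native bladder (SD, n = 4 each).

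MRC1 stood at 33.4, 13.2, 11.7, 18.3 and 14.4 CPM in ileum grafts, against 13.8, 12.9, 12.7, 12.7 and 8.62 CPM in native bladders. The value of ileum graft 1, the highest of all 28 libraries, came from the library with the highest mitochondrial share, in which C1QA, C1QC and CSF1R were the second lowest of 28. The log2 fold change was 0.58 (SE 0.49, edgeR adjusted p = 0.473), and 0.25 without that library. In regenerated tissue MRC1 held 9.14 ± 5.18 CPM in the SIS arm, against 9.36 ± 4.79 CPM in SIS native bladder (SD, n = 5 each), and 7.93 ± 6.24 CPM in the PRS arm, against 6.49 ± 1.90 CPM in PRS native bladder (SD, n = 4 each).

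Relative to each other, reads of MRC1 per read of CD163 ran from 0.574 to 6.39 in ileum grafts (median 1.14), against 0.652 to 1.32 in Entero native bladders (median 0.919). Ileum grafts 1 and 3 had the highest ratios, at 6.39 and 4.71. In regenerated SIS tissue the ratio was 0.841 to 2.85 (median 2.15), against 0.630 to 1.51 in SIS native bladder (median 1.21). In regenerated PRS tissue it was 0.481 to 1.58 (median 1.08), against 0.616 to 0.946 in PRS native bladder (median 0.783). The groups overlapped in each arm. By group mean CD163 ran from Entero native bladder through ileum graft, SIS native bladder, PRS native bladder and regenerated PRS tissue to regenerated SIS tissue. For MRC1 the order was ileum graft, Entero native bladder, SIS native bladder, regenerated SIS tissue, regenerated PRS tissue and PRS native bladder. No neighbours in either order were apart by more than the larger of their SDs.

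MARCO was close to undetectable. It had reads in 11 of 28 libraries and at most 16 in any of them, and a count of 0 allows up to 3 reads. Group totals were 12 reads in ileum grafts and 20 in Entero native bladders. They were 19 reads in regenerated tissue and 9 in native bladder of the SIS arm, and 6 reads in regenerated tissue and 27 in native bladder of the PRS arm. The 12 reads of ileum grafts all came from ileum graft 4. No difference of MARCO was detectable at this depth, since its SE in the Entero arm was 1.78 on the log2 scale.

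**Figure D4:**
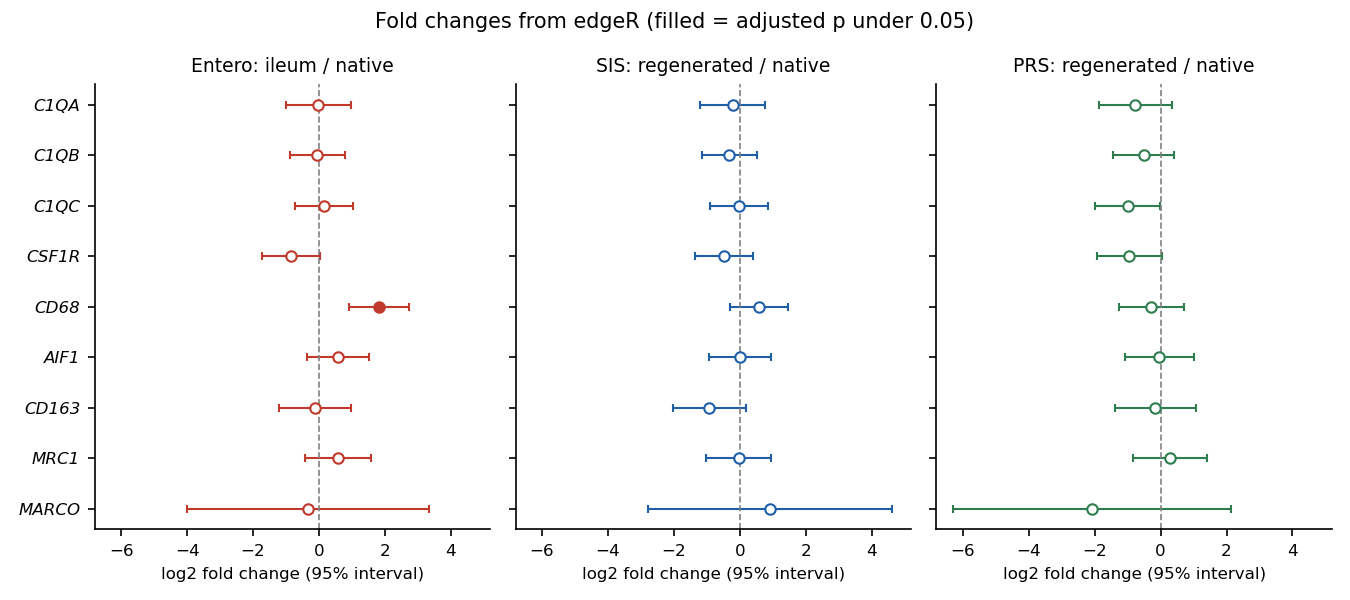
Log2 fold changes of graft against native bladder with 95% intervals from edgeR for the 9 genes in the 3 arms, where a filled point passed the adjusted threshold of 0.05. Only CD68 in the Entero arm (1.82) is filled.

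Counted over the 9 genes, 1 rose, none fell and 8 did not pass in ileum grafts, where 7.72% of all tested genes rose and 7.33% fell. The median log2 fold change of the 9 was -0.02, beside -0.03 over all tested genes. In the SIS arm the median of the 9 was -0.03, beside 0.03 over all genes. In the PRS arm it was -0.52, beside 0.02 over all genes, with no call.

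Set against ileum grafts, regenerated tissue of both scaffold arms had less CD68. The level was 12.9 ± 8.16 CPM in regenerated SIS tissue (SD, n = 5) and 11.4 ± 5.33 CPM in regenerated PRS tissue (SD, n = 4), against 62.7 ± 24.5 CPM in ileum grafts (SD, n = 5). The log2 fold change was -2.28 for SIS (SE 0.45, edgeR adjusted p = 0.000657), where 21.1% of genes passed and 10.2% fell. It was -2.46 for PRS (SE 0.49, edgeR adjusted p = 0.00116), where 14% passed and 6.75% fell. These comparisons are between animals, and they share the ileum grafts.

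None of the other 8 genes passed against ileum grafts in edgeR. For SIS, CD163 came nearest at -1.42 (SE 0.54, edgeR adjusted p = 0.0646), and DESeq2, which called 26.4% of genes, called it too (-1.46, adjusted p = 0.0267), as did edgeR without ileum graft 1, ileum graft 3 or regenerated SIS tissue 2. For PRS, C1QC was at -1.25 (SE 0.47, edgeR adjusted p = 0.0743) and AIF1 at -1.30 (SE 0.50, edgeR adjusted p = 0.0831), and DESeq2, which called 19.8% of genes, called both, with adjusted p = 0.0323 for C1QC and 0.0338 for AIF1. With 1 library left out, edgeR also called C1QC (without ileum graft 1 or regenerated PRS tissue 4), AIF1 (without ileum graft 1 or 3) and MRC1 (without regenerated PRS tissue 2) in PRS tissue against ileum grafts. CSF1R was at 0.0055 (95% interval -0.87 to 0.88) for SIS and -0.13 (-1.06 to 0.80) for PRS against ileum grafts, intervals too wide to show that they were alike. The median over the 9 genes was -0.85 for SIS, beside 0.04 over all genes, and -1.13 for PRS, beside 0.05. The median for PRS is the value of MARCO itself (SE 1.96), which had few reads.

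The difference between arms in the change from native bladder was tested directly. For CD68 the change in the scaffold arms was lower than that in the Entero arm by a log2 value of -1.68 (SE 0.54, edgeR adjusted p = 0.0558), a difference that missed the threshold without the animal block. With the animal as a replicate block it was -1.68 (SE 0.39, adjusted p = 0.0218), and DESeq2, which called 11.9% of genes, gave -1.70 (adjusted p = 0.0213). It passed in 7 of the 28 fits that each left out 1 library, with edgeR adjusted p-values of 0.0155 to 0.137. The 7 left out ileum graft 1 or 3, Entero native bladder 2, regenerated SIS tissue 2, PRS native bladder 1 or 2, or regenerated PRS tissue 4. Of all genes, 7.39% passed in this comparison (1269) and 3.52% were lower in the scaffold arms, while 812 passed with the block. For CSF1R the changes differed by 0.13 (SE 0.53, edgeR adjusted p = 0.939), and the others had edgeR adjusted p-values of 0.527 or more.

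Between the scaffolds no difference was detected. The change from native bladder in the PRS arm differed from that in the SIS arm by -0.99 for C1QC (SE 0.65), -0.86 for CD68 (SE 0.64) and 0.76 for CD163 (SE 0.80), all at an edgeR adjusted p of 1. Regenerated PRS tissue against regenerated SIS tissue gave 0.61 for CD163 (95% interval -0.55 to 1.78), -0.40 for C1QC (-1.35 to 0.54) and -0.18 for CD68 (-1.12 to 0.75). Over all genes edgeR passed 0% in both comparisons. An unadjusted p under 0.05 was reached by 3.98% (683) in the first and 4.44% (763) in the second, where DESeq2 called 20 (0.117%) and 15 genes (0.0876%).

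Among native bladders none of the 9 passed. All 9 genes were lower in the native bladders of the scaffold arms than in those of the Entero arm, all at an edgeR adjusted p of 1, where 0.0466% of all genes (8) passed. Over all tested genes, 9245 of 17177 had a negative value in this comparison. CD68 came nearest, at -0.69 (SE 0.37, unadjusted p = 0.0745), with 8.68 ± 3.11 CPM in SIS native bladders (SD, n = 5) and 13.9 ± 10.5 CPM in PRS native bladders (SD, n = 4), against 17.7 ± 8.85 CPM in Entero native bladders (SD, n = 5).

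Across libraries the 9 genes did not all move together. Over the 14 grafts r of log2(CPM + 1) between CSF1R and the C1q chains was 0.67 for C1QA, 0.72 for C1QB and 0.66 for C1QC, and over the 14 native bladders 0.80, 0.71 and 0.86. AIF1 had an r with the C1q chains of 0.87, 0.85 and 0.88 in grafts and 0.16, 0.43 and 0.15 in native bladders. The grafts pool ileum with regenerated tissue. In PRS native bladder 2 AIF1 was the lowest of all libraries (2.98 CPM), beside 115 CPM of C1QA and 141 CPM of C1QC. The r without that library was not computed, so a difference between grafts and native bladders cannot be read from these values. CD68 and CSF1R had an r of 0.09 in grafts and 0.41 in native bladders. CD163 and MRC1, the scavenger pair, had 0.53 in grafts and 0.76 in native bladders.

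**Figure D5:**
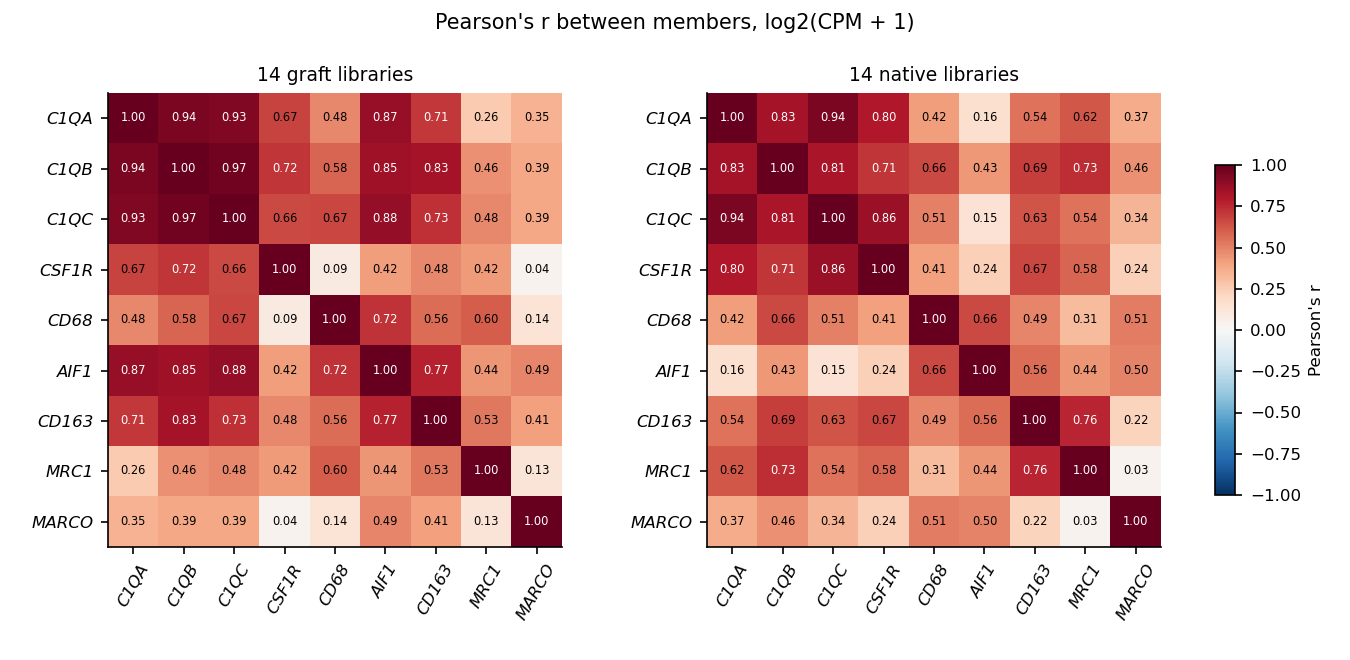
Pearson's r of log2(CPM + 1) between the 9 genes over the 14 grafts (left) and the 14 native bladders (right), as a description with no test. The C1q chains lie at 0.93 to 0.97 with each other in grafts and 0.81 to 0.94 in native bladders, and AIF1 lies at 0.85 to 0.88 with them in grafts and 0.15 to 0.43 in native bladders. The grafts pool ileum with regenerated tissue, and the native values include PRS native bladder 2, where AIF1 was lowest and C1QA and C1QC were high.

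Among all other named genes, those most like the mean of the C1q chains over the 28 libraries were known myeloid genes. FCER1G, the signalling chain of Fc receptors, had r = 0.83 (0.76 over the native bladders alone) and LST1, a leukocyte membrane protein, had 0.80 (0.72). The scavenger receptor gene STAB1 had 0.76 (0.51), MS4A6A 0.75 (0.34), SPI1, the myeloid transcription factor PU.1, 0.73 (0.48) and CD33, a sialic-acid receptor, 0.73 (0.81). For CD163 they were MS4A6A at 0.78 (0.51), RNASE6 at 0.77 (0.53) and the Fc receptor gene FCGR2B at 0.74 (0.73).

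CD68 had a different neighbourhood, with PROC, which encodes the anticoagulant protein C, at 0.93 (0.91), the immunoproteasome subunit gene PSMB9 at 0.92 (0.89) and RHOF at 0.92 (0.91). For CSF1R they were SNN at 0.67 (0.51), ZNF354C at 0.64 (0.35) and CD14, the lipopolysaccharide co-receptor, at 0.64 (0.77). For AIF1 they were SNRPF at 0.84 (0.73), GIPR at 0.80 (0.60) and NEIL3 at 0.80 (0.69). For MRC1 they were OSBPL11 at 0.67 (0.07), LGI2 at 0.63 (0.35) and CD58 at 0.63 (0.49). For MARCO, whose level rests on few reads, they were NETO2 at 0.74 (0.71), GRIK4 at 0.70 (0.75) and SRSF1 at 0.68 (0.44). Each of these genes was picked as the highest of all tested genes with a symbol, of which there were 15120 with the 9 included.

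Genes of the macrophage, monocyte and scavenger lists gave no general rise beside CD68 in ileum grafts. Of 24 other macrophage and monocyte genes tested none rose and 2 fell, with a median log2 fold change of -0.29, beside -0.03 over all genes and 15% called. The fractalkine receptor gene CX3CR1 was 0.146 ± 0.2001 CPM in ileum grafts and 2.26 ± 1.93 CPM in native bladders and fell (log2 fold change -3.91, SE 1.06, adjusted p = 0.0124 by edgeR). LYZ, the lysozyme gene, was 118 ± 119 CPM in ileum grafts and 773 ± 487 CPM in native bladders and fell (log2 fold change -2.71, SE 0.81, adjusted p = 0.0231 by edgeR). With the animal as a replicate block CX3CR1 held and LYZ did not (-3.11, edgeR adjusted p = 0.0658), and LYZ also lost its call without Entero native bladder 3 (0.0665), ileum graft 3 (0.0527) or ileum graft 5 (0.0646). CD14 (-0.40), TYROBP (-0.30) and FCER1G (-0.087) did not pass. Of 16 scavenger and tissue-resident macrophage genes none rose and 2 fell, the coagulation factor XIII gene F13A1 (log2 fold change -1.88, SE 0.57) and the collectin gene COLEC12 (-1.35, SE 0.43), with a median of -0.65. F13A1 lost its call without ileum graft 2 or 5 or Entero native bladder 1 or 4 (edgeR adjusted p up to 0.0753). COLEC12 lost it with the block (-1.17, adjusted p = 0.0575) and without ileum graft 2, 3 or 5 or Entero native bladder 4 or 5 (up to 0.126).

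Of 16 inflammatory macrophage genes 1 rose and 1 fell, beside 15% of all genes called in this comparison. NOS2, the inducible nitric oxide synthase, was 403 ± 415 CPM in ileum grafts and 1.24 ± 2.24 CPM in native bladders and rose (log2 fold change 8.34, SE 1.39, adjusted p = 0.000191 by edgeR). The 9 intestinal markers rose there too, and whether macrophages or other cells made NOS2 was not tested. CXCL10, an interferon-induced chemokine, fell (log2 fold change -3.32, SE 0.89, adjusted p = 0.0118 by edgeR). CXCL10 lost its call with the animal as a replicate block (-2.74, edgeR adjusted p = 0.0731) and without Entero native bladder 3 (0.0753).

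CD68 is a lysosomal protein, and of 23 other lysosomal genes 3 rose and 4 fell in ileum grafts, with a median of -0.05. Over all genes 15% were called there. The cathepsin genes CTSZ (2.12, SE 0.30) and CTSA (1.32, SE 0.23) and the cholesterol transporter gene NPC1 (1.34, SE 0.29) rose on the log2 scale. LAMP2, a lysosomal membrane protein like CD68, fell (log2 fold change -1.70, SE 0.29, adjusted p = 0.000210 by edgeR), as did ASAH1 (-1.45) and PSAP (-0.87). Of 12 genes of class II antigen presentation HLA-DMA rose (1.32, SE 0.45) and the regulator RFXAP fell (-1.66, SE 0.37), with a median of 0.88. CD74, the invariant chain, was at 1.16 (SE 0.48, edgeR adjusted p = 0.110) and did not pass. PSAP lost its call with the animal as a replicate block (-0.85, edgeR adjusted p = 0.0670) and without Entero native bladder 3 (0.0583). HLA-DMA lost it without ileum graft 3, 4 or 5 or Entero native bladder 1, 3, 4 or 5 (up to 0.120).

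Downstream of C1q, 1 of 6 tested genes of the classical and lectin pathways was called in ileum grafts, beside 15% of all genes. It was SERPING1, the inhibitor of C1r and C1s, which fell (log2 fold change -1.47, SE 0.43, adjusted p = 0.0210 by edgeR). Of 6 alternative and terminal pathway genes C6 rose (8.13, SE 1.34) and C7 fell (-1.47, SE 0.43), both parts of the membrane attack complex. Of 16 complement receptors and regulators the fluid-phase inhibitor clusterin, CLU, fell (log2 fold change -2.54, SE 0.44, adjusted p = 0.000186 by edgeR) and no other passed. SERPING1 lost its call with the block (-1.38, edgeR adjusted p = 0.0662) and without ileum graft 5 (0.0538) or Entero native bladder 4 (0.0945). C7 lost it without ileum graft 2 or 5 or Entero native bladder 1 (up to 0.0766).

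Markers of other cell types were tested beside the macrophage genes in ileum grafts, where 15% of all genes were called. Of 9 dendritic cell genes ZBTB46 rose (1.37, SE 0.45), and their summed level was 22.8 to 63.2 CPM in ileum grafts and 10.4 to 131 CPM in native bladders. Of 8 lymphatic endothelial genes STAB2 rose (3.18, SE 0.69). Of 8 neutrophil and mast cell genes S100A9 fell (-6.30, SE 1.27), and the summed level of the list was 17.03 to 60.5 CPM in ileum grafts and 157 to 420 CPM in native bladders. Of these 8 genes 5 had negative and 3 positive values, with a median of -0.26, so the sum does not describe each gene of the list. None of 10 T and NK cell genes, 7 B and plasma cell genes or 6 smooth muscle genes passed. The urothelial list had 8 of 9 genes lower and 1 higher (KRT20, a keratin that intestinal epithelium also makes), and 3 of 8 fibroblast genes fell (FBLN1, DCN and LUM). ZBTB46 lost its call with the block (1.21, edgeR adjusted p = 0.110) and without ileum graft 2, 3 or 5 or Entero native bladder 1, 3, 4 or 5 (up to 0.131), and LUM with the block (-1.57, adjusted p = 0.0522) and without ileum graft 1, 3 or 5 or Entero native bladder 4 or 5 (up to 0.131).

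In the scaffold arms 0 genes of these lists passed in edgeR, as 0% did over all genes. The smallest p-values in the SIS arm lay in the inflammatory list, with IL6 at 7.51 (SE 1.67, edgeR adjusted p = 0.332) and PTGS2 at 4.47 (SE 1.02, edgeR adjusted p = 0.332). IL6 was 122 ± 267 CPM in regenerated SIS tissue and 0.668 ± 0.413 CPM in native bladder, with a range of 0.408 to 599 CPM in regenerated tissue. The top of that range was regenerated SIS tissue 2, the library in which CD68 was also highest of its group, and without it IL6 was at 2.19 and PTGS2 at 1.61. HMOX1, the haem-degrading enzyme, was at 4.62, and at -0.18 without that library. DESeq2 called PTGS2 (adjusted p = 0.000107) and HMOX1 (adjusted p = 0.000378) and gave IL6 no adjusted p. F13A1 was at -1.53 in the SIS arm (edgeR adjusted p = 0.848). In the PRS arm the myeloid transcription factor genes CEBPA (-1.48) and IRF8 (-1.62), CX3CR1 (-1.95) and the leukocyte lysosomal gene LAPTM5 (-1.20) had the smallest p-values of their lists, all at an edgeR adjusted p of 1.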

How the data were processed

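The authors deposited a table of raw read counts per gene for the 28 libraries. Per the labels' protocols, mRNA was selected with poly-T beads from about 50 mg of tissue, and directional libraries were sequenced as paired ends. Per the submitters' processing notes, featureCounts 1.5.0-p3, StringTie 1.3.3b and HISAT2 2.0.5 were used. Genome build, annotation and strand setting: not given in the sources used here. Each library held 20975648 to 35669026 counted reads.

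Genes were filtered with filterByExpr (minimum count 10), scaled by TMM and tested in 1 fit of 6 groups with edgeR 4.0.16 (glmQLFit and glmQLFTest; R 4.3.3), with Benjamini-Hochberg adjustment over 17177 genes and a threshold of 0.05. SE is the log2 fold change divided by the square root of F. Scripts were tested on simulated data. Differences within animals and correlations use log2(CPM + 1). In the main fit a p-value sets a difference against the spread between libraries within groups, without the pairing by animal. With the animal as a block it sets it against the spread of the differences within animals. Alternatives were DESeq2 1.42.0 and its size factors, no filter, only the groups compared, the animal as a replicate block, a pseudocount of 0.1 CPM and leaving out each library. The labels' animal codes pair graft with native bladder. Deviations of paired libraries correlated at 0.04 to 0.34 in the Entero arm, -0.30 to 0.46 in the SIS arm and 0.19 to 0.71 in the PRS arm. The members and lists were chosen with earlier results of these data known. Named were the 9 genes, every list gene called between graft and native bladder, otherwise up to 2 of a list with the smallest p, and the genes most like each member over 28 libraries (6 for the C1q mean, 3 for others). Values for 9 intestinal, 13 mitochondrial and 9 urothelial markers are given as counts or sums.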

Additional observations from a re-analysis of the deposited data

Results flagged for a closer look

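Within groups of 4 or 5 libraries, a library was singled out where its gap to the nearest other value filled most of the group's range (Dixon's test at the 95% level). This picked 8 of 54 sets of values. Chance alone picks about 5% of such sets, a rate that does not apply to the 3 MARCO sets among the 8, which had reads in a single library and so were picked by construction. CD68 was 27.4 CPM in regenerated SIS tissue 2 and 7.53 to 10.3 CPM in the other 4. CSF1R was 55.3 CPM in Entero native bladder 2 and 21.5 to 30.7 CPM in the other 4, and 45.7 CPM in SIS native bladder 3 and 16.6 to 24.5 CPM in the other 4. Entero native bladder 5 was low for C1QA, at 46.9 CPM against 80.9 to 94.4 CPM in the other 4, and for MRC1, at 8.62 CPM against 12.7 to 13.8 CPM. MARCO was 0.570 CPM in ileum graft 4, 0.360 CPM in SIS native bladder 3 and 0.194 CPM in regenerated PRS tissue 3, with every other library of those groups at 0.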

How the results depend on the processing

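CD68 kept its call between ileum grafts and native bladder, and between regenerated tissue of either scaffold and ileum grafts, under every alternative run. The values for ileum grafts against native bladder were 1.78 to 1.86 over the other fits and 1.59 to 2.15 with 1 library left out. Of the 54 list genes called in ileum grafts, 40 kept the call whichever library was left out. The block ended 10 of the calls, the fit of only the groups compared 11, no filter on low counts 3 and DESeq2 1 (ALPI, an intestinal marker). The cause of these losses was not tested. With a pseudocount of 0.1 CPM the mean differences within animals moved by less than their SD, except those of MARCO. Groups of 4 or 5 libraries limit precision, with SEs of 0.40 to 0.60 for the single-arm log2 fold changes of genes other than MARCO.

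With the animal as a replicate block no call between graft and native bladder changed among the 9 genes within an arm. The block did call CD68 in the scaffold against Entero change and, averaged over the 3 arms, CSF1R and CD68, with the values given above. The block turned 7 uncalled values: MRC1 in the PRS arm (-0.13), over both scaffold arms (-0.097) and in the PRS against SIS change (-0.073), AIF1 in the same comparisons (0.040, 0.019 and 0.043), and MARCO in the scaffold against Entero change (1.74). It called 1 gene over both scaffold arms and 812 in the scaffold against Entero change. DESeq2 called 70 genes in the SIS arm, 26 in the PRS arm, 65 over both, 2006 in the scaffold against Entero change, 20 in the PRS against SIS change, 15 between regenerated tissues and 26 between native bladders. DESeq2 and its size factors in edgeR turned C1QA (0.031) and C1QB (0.0028) in ileum grafts, C1QC (0.0052) and AIF1 (0.016) in the SIS arm, and CSF1R in SIS against ileum grafts (-0.059). Fitting only the groups compared gave 2326 calls for SIS and 1040 for PRS against ileum grafts, 0 between native bladders, and 0.0071 for AIF1 in the SIS arm.

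With 1 library left out, these uncalled log2 values crossed 0. In ileum grafts against native bladder they were CD163 (-0.78 to 0.15), C1QA (-0.29 to 0.25), C1QB (-0.37 to 0.17) and C1QC (-0.12 to 0.40). In the SIS arm they were C1QA (-0.42 to 0.010), C1QC (-0.29 to 0.25), MRC1 (-0.40 to 0.28), AIF1 (-0.27 to 0.24), MARCO (-0.015 to 1.23) and HMOX1 (-0.18 to 4.93). In the PRS arm they were CD68 (-0.67 to 0.37), CD163 (-0.47 to 0.16), MRC1 (-0.30 to 0.65) and AIF1 (-0.32 to 0.49). Over both scaffold arms they were CD68 (-0.093 to 0.47), MRC1 (-0.18 to 0.31) and AIF1 (-0.17 to 0.24). In the scaffold against Entero change they were CSF1R (-0.13 to 0.31), CD163 (-0.69 to 0.24) and MARCO (-2.05 to 0.32), and in the PRS against SIS change C1QB (-0.63 to 0.082), MRC1 (-0.26 to 0.68) and AIF1 (-0.30 to 0.49). Against ileum grafts they were CSF1R (-0.25 to 0.18 for SIS, -0.30 to 0.22 for PRS) and MARCO for SIS (-0.69 to 0.56). Between PRS and SIS regenerated tissue they were CD68 (-0.55 to 0.29), MRC1 (-0.78 to 0.16), C1QB (-0.53 to 0.18) and CSF1R (-0.30 to 0.21). Between native bladders they were CSF1R (-0.36 to 0.073) and MARCO (-0.76 to 0.032). Counts of called genes ran from 0 to 3 in the PRS arm, 0 to 1 over both scaffold arms and 2 to 12 between native bladders.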
